A study of Mus musculus with 6 samples.

Results

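The genes described here are the cytosolic translation initiation factors (eIFs) and elongation factors (eEFs), with the kinases, binding proteins and methyltransferases that carry their names. They were chosen by name alone, as the rows whose gene symbol starts with Eif1 to Eif6 or with Eef1 or Eef2. That gave 77 rows, of which 8 pseudogenes were left out, so 69 of the 53465 rows of the table are members. The cells are a leukaemia line from mouse, labelled Nras(G12D)/MLL-AF9 after its mutant Nras allele and its MLL fusion oncogene. The Vehicle group received PBS and the OMP group received 4'-O-methylpyridoxine at 100 µM, a compound related to vitamin B6 that is known to block pyridoxal kinase, and both were collected at day 6. All cells grew in medium with serum and the cytokines SCF, IL-6 and IL-3, which both groups thus shared. Each group had 3 libraries of poly(A)-selected RNA, and the labels do not say whether these came from separate cultures, nor whether the line is 1 clone.

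Protein synthesis starts when eIF2, loaded with GTP and initiator tRNA, joins the small ribosomal subunit together with eIF1, eIF1A, eIF3 and eIF5. The mRNA is brought by eIF4F, which is made of the cap-binding protein eIF4E, the scaffold eIF4G and the RNA helicase eIF4A, and 4E-binding proteins hold eIF4E back until mTORC1 phosphorylates them. During elongation eEF1A delivers aminoacyl-tRNA and eEF2 moves the ribosome along. In acute myeloid leukaemia cells this machinery is known as a point where growth signals and stress kinases set the rate of protein synthesis, and several of its genes are known targets of MYC.

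Values are RPKM, reads scaled by gene length and by the read total of a library, so levels of different genes can be compared per length. Library totals recovered from the RPKM steps were 3737843 to 4247619 reads in Vehicle and 3494986 to 3720117 reads in OMP, so the OMP libraries were the shallower ones, and the part of depth in the results was not tested. Of 7 myeloid and leukaemic markers Elane, Mpo and Kit fell, Ptprc and Itgam rose, and Hoxa9 and Meis1 did not pass. Their summed level was 1222 to 1275 RPKM in Vehicle and 633 to 663 RPKM in OMP. Elane made up most of that sum, with a mean of 993 RPKM in Vehicle and 370 RPKM in OMP. Ptprc, the next largest, had means of 107 and 139 RPKM, so the lower sum is not a fall shared by the markers. Sums over markers of other blood cells were low. The 5 erythroid markers summed to 0.175 to 0.959 RPKM in Vehicle and at most 0.561 RPKM in OMP, and the 5 B cell markers to 0.162 to 0.551 and at most 0.587 RPKM, with Hbb-bs, Hbb-bt, Pax5 and Ms4a1 among those at 0 in the 6 libraries. Of 5 T cell markers Lck alone was above the filter and did not pass (3.14 ± 0.201 RPKM with Vehicle and 3.15 ± 0.653 RPKM with OMP), with Cd3e, Cd4 and Cd8a at 0. The 4 megakaryocyte markers, none of them above the filter and Pf4 at 0, summed to 0.537 to 0.910 RPKM in Vehicle and 1.98 to 3.32 RPKM in OMP. The part of these shifts in the results on translation factors was not tested, and in RNA from a whole culture fewer cells of a type and less RNA per cell cannot be told apart.

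Translation factor genes moved in both directions within eIF3, the eIF4 groups and eEF1, mostly by modest amounts. With RPKM as deposited the largest rise was in Eif4g1, the main scaffold of eIF4F, at 1.45-fold, and the largest fall in Eef2, the translocating elongation factor, which was 1.66-fold lower. Under quantile normalization the largest fall was instead that of Eef1a1. Of the 69 members 61 reached RPKM 1 in 3 or more of the 6 libraries and were tested, each with at least 47 reads in every library. With limma on log2(RPKM + 0.5), 16 rose and 22 fell at an adjusted p under 0.05 over all 11020 genes tested, and 23 did not pass. That is 62.3% of the members tested, where 43.0% of all genes tested passed, 26.2% against 15.4% for rises and 36.1% against 27.5% for falls. These are highly expressed genes, and all 61 are among the 8277 that reached RPKM 5 in 3 or more libraries. In a fit limited to those genes 52.5% passed, 1589 higher and 2758 lower, and 39 of the 61 members passed, 16 higher and 23 lower. Rises were 36.6% of the calls over those genes and 41.0% of those over the members. The libraries of the groups did not overlap in 47 of the 61 members, against 54.5% of all genes tested, a share not limited to highly expressed genes. The median log2 fold change was -0.04 over the members and -0.09 over all genes tested.

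The balance of rises and falls depended on how libraries were scaled to each other. Rises were 42.1% of the members called with RPKM as deposited, and 23 rose and 17 fell (57.5% rises) with median-of-ratios scaling. TPM rescaling gave 13 rises and 29 falls (31.0%), and quantile normalization 23 and 24 (48.9%). An alternative added after seeing the data, in which a trend of fold change over GC content and length was removed, gave 28 and 16 (63.6%). The share of rises among all genes called moved alongside, from 35.9% with RPKM as deposited to 51.4%, 23.4%, 49.2% and 53.2% under these 4 alternatives in the same order. In spite of these shifts 28 of the 38 calls held with their sign in each of 17 alternatives. The 13 rises that held were those of Eif4g1, Eif4a1, Eif4a2, Eif4e2, Eif3b, Eif3c, Eif3d, Eif3m, Eif2b2, Eif5b, Eif6, Eef1d and Eef1e1. The 15 falls that held were those of Eef2, Eef2k, Eef1a1, Eef1b2, Eif4b, Eif4h, Eif4e3, Eif4ebp1, Eif4ebp2, Eif3f, Eif3h, Eif3i, Eif2d, Eif2ak2 and Eif1ad.

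**Figure D1:**
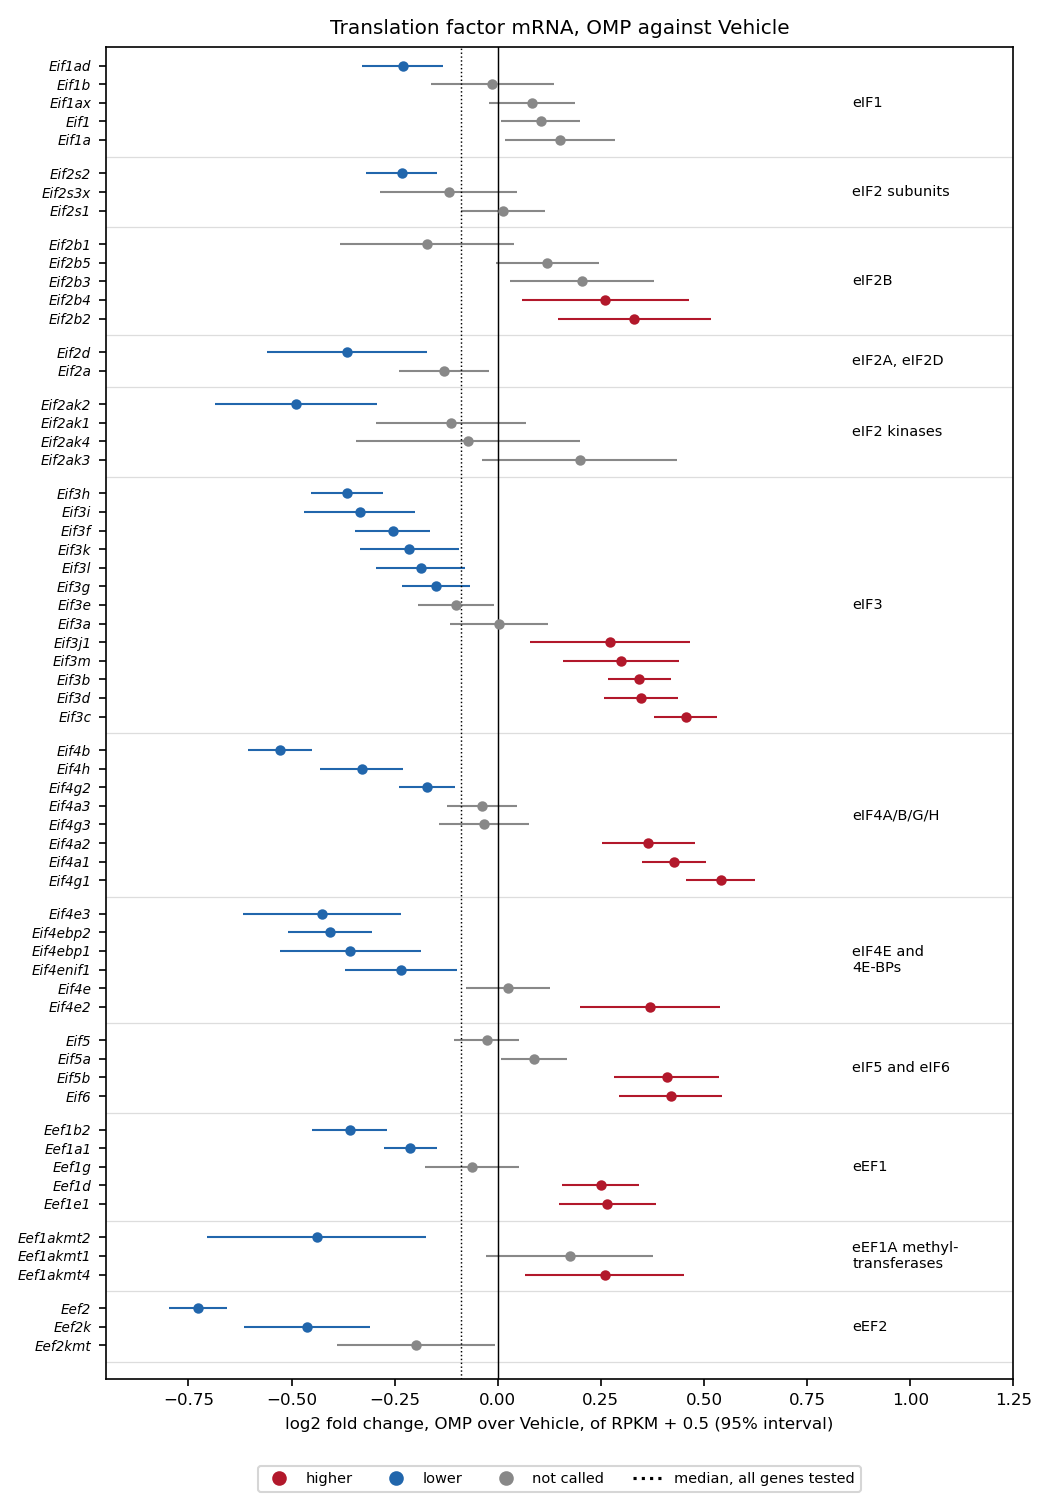
Log2 fold change of OMP over Vehicle on the RPKM + 0.5 scale for the 61 members tested, by complex, as point and 95% interval from limma (3 libraries per group), with rises in red, falls in blue and members past no threshold in grey. Rises and falls sit side by side in eIF3, the eIF4 groups and eEF1, from 0.54 for Eif4g1 to -0.73 for Eef2, and the dotted line is the median of all genes tested at -0.09.

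The stretches before a RefSeq start of 4 of these genes are shown because members that rose and members that fell hold the same short motif there. The motif searched was CACGTG, the E-box known to bind MYC with MAX, which reads the same on both strands and was searched alone, with no other motif. In RefSeq windows of 300 bases on GRCm38.p6 (250 before to 50 after each annotated start), 53 of the 69 members were matched by symbol and 13 of them (24.5%) held it. For comparison 12.5% of the 8166 symbols tested here that were matched held it, as did 8.09% of all 27025 symbols. A symbol was counted if any of its windows held the motif. Counted by window the share was 7.15% of all 32851. It was found in 3 of 14 matched members that rose, 5 of 17 that fell and 4 of 18 that did not pass, so each of these classes had members with it. Shown are the 2 largest rises and 2 largest falls among members that hold it and have only 1 annotated window in RefSeq, each as the 250 bases before the start, 5′ to 3′ on the strand of the gene, with the E-box in capitals.
Eif4g1, which rose, is at chr16:20672477-20672726 on the plus strand, with the E-box beginning 54 bases before the start and a second one, outside the stretch shown, beginning 15 bases after it. This stretch lies inside the gene as annotated in GENCODE, which begins further upstream at 20668313.
Eif4g1: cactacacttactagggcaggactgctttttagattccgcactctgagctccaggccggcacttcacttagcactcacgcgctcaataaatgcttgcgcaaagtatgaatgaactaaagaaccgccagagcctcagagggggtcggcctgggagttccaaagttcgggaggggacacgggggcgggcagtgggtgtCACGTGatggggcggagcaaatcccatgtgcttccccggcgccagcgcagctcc
Eif4a1, which rose, is at chr11:69672424-69672673 on the minus strand, with the E-box beginning 189 bases before the start.
Eif4a1: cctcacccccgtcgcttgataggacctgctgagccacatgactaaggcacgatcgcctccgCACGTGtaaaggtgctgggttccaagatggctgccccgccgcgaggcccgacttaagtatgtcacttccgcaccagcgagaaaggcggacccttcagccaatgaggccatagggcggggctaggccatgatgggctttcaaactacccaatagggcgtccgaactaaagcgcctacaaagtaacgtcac
Eef2, which fell, is at chr10:81176381-81176630 on the plus strand, with the E-box beginning 43 bases before the start.
Eef2: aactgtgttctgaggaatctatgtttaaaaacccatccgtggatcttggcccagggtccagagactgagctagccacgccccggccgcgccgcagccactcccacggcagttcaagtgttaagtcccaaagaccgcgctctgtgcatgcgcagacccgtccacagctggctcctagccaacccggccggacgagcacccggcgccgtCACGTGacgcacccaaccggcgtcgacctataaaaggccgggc
Eif4h, which fell, is at chr5:134639410-134639659 on the minus strand, with the E-box beginning 96 bases before the start. Part of this stretch lies inside the gene as annotated in GENCODE, whose 5′ end is at 134639490.
Eif4h: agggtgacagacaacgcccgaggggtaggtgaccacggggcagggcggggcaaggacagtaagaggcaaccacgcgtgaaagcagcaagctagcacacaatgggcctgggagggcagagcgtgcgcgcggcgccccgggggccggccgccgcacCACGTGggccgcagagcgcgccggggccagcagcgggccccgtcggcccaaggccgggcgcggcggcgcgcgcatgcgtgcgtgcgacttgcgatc

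Within the eIF4F group the scaffold and helicase genes rose while the genes of 2 helicase cofactors fell. Eif4g1 (ENSMUSG00000045983, GRCm38 chromosome 16, 20668313 to 20692884) stood at 149, 153 and 150.1 RPKM in Vehicle and 219.6, 212 and 227 RPKM in OMP. Every OMP library was above every Vehicle library (log2 fold change 0.54 with SE 0.04, adjusted p = 1.63e-05 by limma). Eif4a1 (ENSMUSG00000059796, chromosome 11, 69666936 to 69672423), the main eIF4A helicase, stood at 550.5, 587 and 582 RPKM in Vehicle and 769, 780.0 and 763 RPKM in OMP. It rose 1.34-fold with no overlap between groups (log2 fold change 0.43 with SE 0.03, adjusted p = 3.47e-05 by limma). Eif4a2, its close paralog, stood at 95.1, 86.2 and 89.5 RPKM in Vehicle and 112, 117 and 120.4 RPKM in OMP, again without overlap, and rose 1.29-fold (log2 fold change 0.36 with SE 0.05, adjusted p = 5.62e-04 by limma). Eif4a3, a paralog that works in the exon junction complex and not in eIF4F, was at 104 ± 0.885 RPKM with Vehicle and 102 ± 2.59 RPKM with OMP and did not pass (log2 fold change -0.04 with SE 0.04, adjusted p = 0.433 by limma).

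Eif4b and Eif4h encode RNA-binding proteins that stimulate the eIF4A helicase, and both were lower with OMP. Eif4b (ENSMUSG00000058655, chromosome 15, 102073773 to 102097173) stood at 239, 247 and 234 RPKM in Vehicle and 166, 167 and 167 RPKM in OMP, so the OMP libraries were close to each other and all lower than Vehicle. It was 1.44-fold lower (log2 fold change -0.53 with SE 0.03, adjusted p = 1.18e-05 by limma), the largest fall in the eIF4 groups. Eif4h dropped 1.26-fold from 195 ± 9.25 to 155 ± 4.33 RPKM, also without overlap. Eif4g2, a shorter eIF4G relative that lacks the eIF4E-binding site, was at 269.6 ± 1.05 RPKM with Vehicle and 239 ± 3.02 RPKM with OMP and was 1.13-fold lower, a call that was lost with median-of-ratios scaling (adjusted p = 0.0639) and with the GC and length trend removed (0.140). Eif4g3, the other close eIF4G1 paralog, did not pass (log2 fold change -0.03 with SE 0.05, adjusted p = 0.612 by limma). Of the 8 members of this group 3 rose, 3 fell and 2 did not pass, so 75.0% were called against 43.0% of all genes tested.

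The gene of the cap-binding protein itself did not pass the threshold, while those of its tested 4E-BPs fell. Eif4e stood at 37.7, 38.4 and 38.2 RPKM in Vehicle and 38.6, 38.0 and 39.5 RPKM in OMP, values that overlap between groups. Its log2 fold change was 0.02 (limma adjusted p = 0.695, 95% interval -0.08 to 0.13), and it passed in 1 of the 17 alternatives, with the GC and length trend removed, at 0.18 (adjusted p = 0.0109). Eif4ebp1, a 4E-BP that mTORC1 phosphorylates, stood at 101, 92.2 and 101 RPKM in Vehicle and 75.9, 84.9 and 69.1 RPKM in OMP. The OMP libraries spread more than those of Vehicle but all lay under them, and the gene was 1.28-fold lower (log2 fold change -0.36 with SE 0.07, adjusted p = 0.00532 by limma). Eif4ebp2, its paralog, stood at 69.3, 67.1 and 68.3 RPKM in Vehicle and 51.2, 53.2 and 49.5 RPKM in OMP and was 1.33-fold lower without overlap (log2 fold change -0.41 with SE 0.04, adjusted p = 1.88e-04 by limma). The third paralog, Eif4ebp3, had at most 1 read in any library and was not tested.

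Relatives of eIF4E moved in opposite directions. Eif4e2, known as 4EHP, a cap-binding protein that represses translation together with Gigyf2, stood at 27.4, 29.1 and 25.1 RPKM in Vehicle and 33.4, 34.4 and 38.2 RPKM in OMP and rose 1.29-fold (log2 fold change 0.37 with SE 0.07, adjusted p = 0.00430 by limma). Eif4e3, a less studied cap-binding relative, stood at 18.6, 22.6 and 21.2 RPKM in Vehicle and 16.3, 15 and 14.7 RPKM in OMP and was 1.34-fold lower (log2 fold change -0.43 with SE 0.08, adjusted p = 0.00391 by limma). The groups did not overlap for either gene. Eif4enif1, the 4E-transporter that carries eIF4E to the nucleus and to P-bodies, dropped from 35.8 ± 1.33 to 30.4 ± 1.78 RPKM, a call that was lost with median-of-ratios scaling and with the GC and length trend removed (adjusted p = 0.0877 and 0.0880). In all 1 of the 6 tested genes of this group rose and 4 fell, so 83.3% were called against 43.0% of all genes tested.

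**Figure D2:**
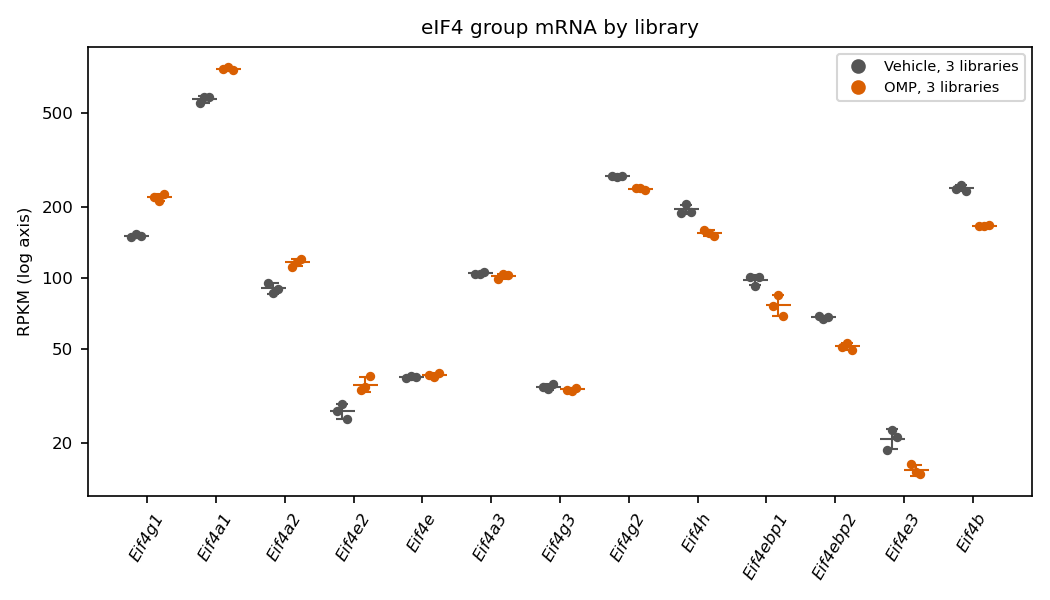
RPKM on a log axis in each of the 3 Vehicle (grey) and 3 OMP (orange) libraries for the 13 genes named on the axis, with mean and SD as bars, ordered by direction. Eif4g1, Eif4a1, Eif4a2 and Eif4e2 are higher in every OMP library, and Eif4e and Eif4g3 overlap. Eif4g2, Eif4h, Eif4ebp1, Eif4ebp2, Eif4e3 and Eif4b are lower in every OMP library, as is Eif4a3, by a small margin and without passing.

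The 13 tested subunits of eIF3, the large scaffold that keeps the ribosomal subunits apart and receives the mRNA, split into 5 that rose, 6 that fell and 2 that did not pass. The share called was 84.6%, against 43.0% of all genes tested and 52.5% in the fit limited to genes that reached RPKM 5. Subunit mRNAs ranged in Vehicle from 95.9 RPKM for Eif3d to 278 RPKM for Eif3e, apart from Eif3j1 at 11.4 RPKM. The rises were in Eif3c, Eif3d, Eif3b, Eif3m and Eif3j1. Eif3c (ENSMUSG00000030738, chromosome 7, 126546455 to 126566411), a core subunit, stood at 233, 232 and 228 RPKM in Vehicle and 314, 310.2 and 327 RPKM in OMP. It rose 1.37-fold, the most of any eIF3 gene, with no overlap (log2 fold change 0.46 with SE 0.03, adjusted p = 2.57e-05 by limma). Eif3d, a subunit that can itself bind the cap of some mRNAs, stood at 95.9, 93.4 and 98.4 RPKM in Vehicle and 119, 124 and 123 RPKM in OMP and rose 1.27-fold (log2 fold change 0.35 with SE 0.04, adjusted p = 2.31e-04 by limma). Eif3b, the scaffold of the part that holds subunits g and i, had a similar rise, from 165 ± 1.85 to 209.7 ± 4.30 RPKM, and Eif3m went from 136 ± 12.1 to 166 ± 1.97 RPKM. Those 4 genes were higher in every OMP library than in any Vehicle library.

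The falls were in Eif3h, Eif3i, Eif3f, Eif3k, Eif3l and Eif3g. Eif3h, of the MPN-domain pair with Eif3f, stood at 261, 279 and 259 RPKM in Vehicle and 205, 208 and 205 RPKM in OMP and was 1.29-fold lower (log2 fold change -0.37 with SE 0.04, adjusted p = 1.49e-04 by limma). Eif3i, a WD-repeat subunit next to eIF3b, fell by 0.33 on the log2 scale from 201 ± 10.2 to 159.5 ± 11.4 RPKM, and Eif3f fell by 0.25 from 181 ± 7.15 to 152 ± 2.67 RPKM. The smaller falls of Eif3k, Eif3l and Eif3g (log2 fold changes -0.21, -0.19 and -0.15) were lost with median-of-ratios scaling (adjusted p = 0.0827, 0.134 and 0.212) and with the GC and length trend removed. The counts for eIF3 thus became 5 higher and 3 lower, and 6 and 3, under those alternatives. TPM rescaling gave 4 higher and 7 lower, and quantile normalization 5 and 7.

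Rises and falls were found in both structural parts of eIF3. Of the 8 subunits of the structural octamer (a, c, e, f, h, k, l and m) 2 rose, 4 fell and 2 did not pass, and of the other 5 tested (b, d, g, i and j1) 3 rose and 2 fell. Eif3a, the largest subunit, stood at 187, 193 and 188 RPKM in Vehicle and 200.1, 175 and 195 RPKM in OMP. Its groups overlapped (log2 fold change 0.00 with SE 0.05, adjusted p = 0.966 by limma, 95% interval -0.12 to 0.12), and it passed at 0.13 with the GC and length trend removed (adjusted p = 0.0464). Eif3e stood at 268, 273 and 294 RPKM in Vehicle and 260.1, 259 and 259 RPKM in OMP, with every OMP library lower, but missed the threshold (log2 fold change -0.10 with SE 0.04, adjusted p = 0.0742 by limma) and passed under quantile normalization (adjusted p = 0.0152), TPM rescaling (0.00580) and voom on recovered reads (0.0371). Eif3j1, the loosely bound subunit j, stood at 11.4, 12.6 and 10.4 RPKM in Vehicle and 13.3, 14.1 and 14.2 RPKM in OMP (log2 fold change 0.27 with SE 0.08, adjusted p = 0.0312 by limma). That call was lost without Vehicle replicate 1, Vehicle replicate 3, OMP replicate 2 or OMP replicate 3 (adjusted p = 0.0740, 0.0995, 0.0771 and 0.0835). It was also lost with no filter and with TPM rescaling. Its near-identical copy Eif3j2 had 3 to 10 reads per library and was not tested, and the sources used here do not say how reads were divided between these 2 genes.

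**Figure D3:**
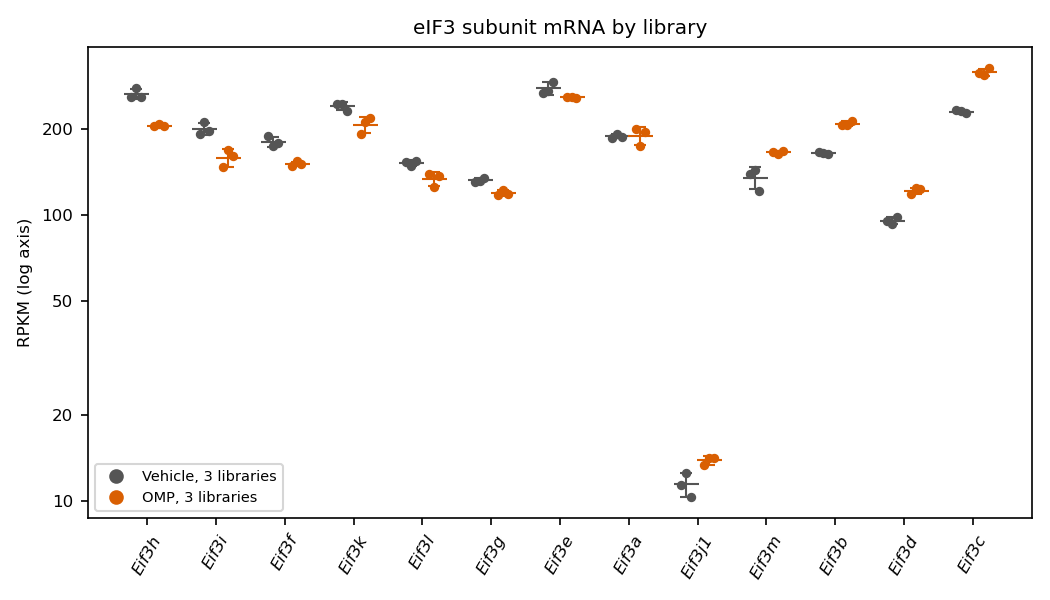
RPKM on a log axis of the 13 tested eIF3 subunit genes in each Vehicle (grey) and OMP (orange) library, with mean and SD of 3 libraries as bars, ordered from the largest fall to the largest rise. Eif3h, Eif3i, Eif3f, Eif3k, Eif3l, Eif3g and Eif3e are lower in every OMP library, Eif3e without passing. Eif3b, Eif3c, Eif3d, Eif3m and Eif3j1 are higher in every OMP library, and Eif3a overlaps. Eif3j1, at 11.4 RPKM in Vehicle, lies far under the other subunits.

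Of the 3 tested genes of eIF2, which carries the initiator tRNA, 1 fell and 2 did not pass. The share called was 33.3%, against 43.0% of all genes tested. Eif2s1, the alpha subunit whose phosphorylation is the switch of the integrated stress response, stood at 87.3, 88.4 and 84.3 RPKM in Vehicle and 90.6, 88.5 and 83.5 RPKM in OMP, with overlapping groups (log2 fold change 0.01 with SE 0.04, adjusted p = 0.831 by limma, 95% interval -0.09 to 0.12). It passed upward with the GC and length trend removed, at 0.17 (adjusted p = 0.0120). Eif2s2, the beta subunit, dropped from 148 ± 4.96 to 125 ± 0.803 RPKM (log2 fold change -0.23 with SE 0.04, adjusted p = 0.00140 by limma), a call lost with the GC and length trend removed. Eif2s3x, the X-linked gamma subunit, did not pass (log2 fold change -0.12 with SE 0.07, adjusted p = 0.218 by limma), and its Y-linked copy Eif2s3y had 0 reads in all 6 libraries. Eif2d, a separate factor that can load tRNA without eIF2, was 1.29-fold lower (23.2 ± 2.63 to 17.8 ± 0.754 RPKM), and Eif2a, an unrelated factor of similar name, was lower in every OMP library but missed the threshold (log2 fold change -0.13 with SE 0.05, adjusted p = 0.0562 by limma). It passed without OMP replicate 2 (adjusted p = 0.0438), with TPM rescaling (0.00556) and with the filter at an RPKM of 5 (0.0477).

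The factor eIF2B exchanges GDP for GTP on eIF2 and is blocked by phosphorylated eIF2. With RPKM as deposited 2 of its 5 subunits rose and 0 fell, or 40.0% called against 43.0% of all genes tested. TPM rescaling gave 1 rise and 1 fall, that of Eif2b1. Median-of-ratios scaling, quantile normalization and removal of the GC and length trend each gave 4 rises and 0 falls. Eif2b2, the beta subunit, rose 1.26-fold from 33.4 ± 3.47 to 42.1 ± 2.41 RPKM (log2 fold change 0.33 with SE 0.08, adjusted p = 0.0110 by limma). Eif2b4, the delta subunit, went from 15.3 ± 1.72 to 18.4 ± 0.961 RPKM (log2 fold change 0.26 with SE 0.09, adjusted p = 0.0429 by limma), a call that was lost without Vehicle replicate 1, Vehicle replicate 2, OMP replicate 1 or OMP replicate 2 (adjusted p = 0.111, 0.135, 0.11 and 0.107) and with the replicate number as a block (0.0759), and also with no filter and with TPM rescaling. Eif2b3 and Eif2b5 were higher in every OMP library without passing (log2 fold changes 0.20 and 0.12). Eif2b3 passed without OMP replicate 2 (adjusted p = 0.0356), and both passed with median-of-ratios scaling (0.0163 and 0.0155). Eif2b1, the alpha subunit, was lower in every OMP library at 37.0 ± 1.12 RPKM with Vehicle and 33.0 ± 4.42 RPKM with OMP without passing (log2 fold change -0.17 with SE 0.09, adjusted p = 0.166 by limma).

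Of the 4 kinases that phosphorylate eIF2 alpha, 1 fell and 0 rose with RPKM as deposited, or 25.0% called against 43.0% of all genes tested. Eif2ak3 rose with quantile normalization and with the GC and length trend removed. Eif2ak2, or PKR, the kinase activated by double-stranded RNA and induced by interferon, stood at 13.3, 14.1 and 13.8 RPKM in Vehicle and 8.69, 10.5 and 9.85 RPKM in OMP. All OMP libraries lay lower, and the gene was 1.40-fold lower (log2 fold change -0.49 with SE 0.09, adjusted p = 0.00222 by limma). Eif2ak3, or PERK, the kinase of the endoplasmic reticulum stress response, stood at 7.11, 5.74 and 6.36 RPKM in Vehicle and 7.16, 7.30 and 7.74 RPKM in OMP, without overlap but short of the threshold (log2 fold change 0.20 with SE 0.10, adjusted p = 0.156 by limma, with adjusted p = 0.0333 and 0.0472 in the 2 alternatives named). Eif2ak4, or GCN2, the kinase that senses uncharged tRNA, stood at 9.80, 10.4 and 9.51 RPKM in Vehicle and 7.72, 10.1 and 10.5 RPKM in OMP. Its OMP replicate 1 was the lowest of the 6 libraries and the other 2 lay among or above those of Vehicle, so the groups overlapped (log2 fold change -0.07 with SE 0.12, adjusted p = 0.651 by limma, 95% interval -0.34 to 0.20). Eif2ak1, or HRI, the haem-regulated kinase, was at 16.2 ± 1.52 RPKM with Vehicle and 14.9 ± 0.396 RPKM with OMP and did not pass.

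Factors of start-site selection shifted little, while Eif5b and Eif6, which act in opposite ways on subunit joining, rose. Eif1, Eif1a, Eif1ax and Eif1b, which help the ribosome to scan and to choose the start codon, had log2 fold changes of 0.10, 0.15, 0.08 and -0.01, and none of these 4 passed with RPKM as deposited. Eif1 passed without Vehicle replicate 1 (adjusted p = 0.0181) and Eif1a without OMP replicate 3 (0.0249), and Eif1, Eif1a and Eif1ax passed upward with median-of-ratios scaling (0.00779, 0.0121 and 0.0175). Eif1ad, a related protein of ribosome assembly, was 1.17-fold lower (61.8 ± 1.13 to 52.6 ± 1.48 RPKM). Eif5b, the GTPase that joins the ribosomal subunits, stood at 28.2, 27.8 and 26.5 RPKM in Vehicle and 38.4, 36.6 and 35.0 RPKM in OMP. It rose 1.33-fold without overlap (log2 fold change 0.41 with SE 0.06, adjusted p = 5.79e-04 by limma). Eif6, which keeps the large subunit from joining too early and takes part in its assembly, stood at 101, 91.1 and 101 RPKM in Vehicle and 125, 137 and 129.7 RPKM in OMP and rose 1.34-fold, again without overlap (log2 fold change 0.42 with SE 0.05, adjusted p = 4.92e-04 by limma).

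Eif5a encodes the factor that carries hypusine, a modified lysine made from the polyamine spermidine, and helps ribosomes past difficult peptide bonds. It was the most abundant initiation factor mRNA, at 869, 829 and 847 RPKM in Vehicle and 898, 933 and 874 RPKM in OMP. Every OMP library was above every Vehicle library by a small margin, which missed the threshold (log2 fold change 0.09 with SE 0.03, adjusted p = 0.0705 by limma, 95% interval 0.01 to 0.17). It passed upward with median-of-ratios scaling (adjusted p = 0.00418), quantile normalization (0.0350), voom on recovered reads (0.0107) and the GC and length trend removed (0.00284). Eif5a2, its paralog, had 0 reads in the 6 libraries. Dhps and Dohh, the enzymes that make hypusine, did not pass (log2 fold changes 0.09 and 0.04). Eif5, which makes eIF2 hydrolyse its GTP, was at 198 ± 3.72 RPKM with Vehicle and 194 ± 4.17 RPKM with OMP and did not pass (log2 fold change -0.03 with SE 0.03, adjusted p = 0.560 by limma).

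The genes of the 2 main elongation factors fell, Eef2 by more than Eef1a1 with RPKM as deposited. Eef1a1 (ENSMUSG00000037742, chromosome 9, 78478449 to 78489151), the carrier of aminoacyl-tRNA and the most abundant member, stood at 4152, 4133 and 4097 RPKM in Vehicle and 3479, 3554 and 3663 RPKM in OMP. The groups did not overlap, and the fall was 1.16-fold (log2 fold change -0.21 with SE 0.03, adjusted p = 5.59e-04 by limma). Its size depended on the scaling, with a log2 fold change of -0.12 under median-of-ratios scaling and -1.0 under quantile normalization. Eef2 (ENSMUSG00000034994, chromosome 10, 81176631 to 81182498) stood at 1323, 1324 and 1284 RPKM in Vehicle and 771, 803 and 801 RPKM in OMP. It was 1.66-fold lower, in 3 of 3 OMP libraries (log2 fold change -0.73 with SE 0.03, adjusted p = 1.19e-06 by limma). Under quantile normalization its log2 fold change was -0.80, smaller in size than that of Eef1a1. Eef2k, the kinase that phosphorylates eEF2 and so slows elongation, was lower too, at 22.9, 22.6 and 22.2 RPKM in Vehicle and 15, 17.1 and 16.8 RPKM in OMP (log2 fold change -0.46 with SE 0.07, adjusted p = 8.32e-04 by limma). Eef2kmt, the methyltransferase of eEF2, had overlapping groups and did not pass (log2 fold change -0.20 with SE 0.08, adjusted p = 0.0885 by limma), but it passed downward with TPM rescaling (adjusted p = 0.0283).

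The subunits of eEF1B, the complex that reloads eEF1A with GTP, did not move as 1 unit. Eef1b2, the alpha catalytic subunit, was 1.28-fold lower (408 ± 18.6 to 318 ± 6.80 RPKM, limma adjusted p = 2.19e-04), while Eef1d, the delta catalytic subunit, rose 1.19-fold (54.5 ± 1.30 to 64.9 ± 0.438 RPKM, limma adjusted p = 0.00151). Eef1g, the structural gamma subunit, was at 283 ± 15.8 RPKM with Vehicle and 271 ± 12 RPKM with OMP and did not pass (log2 fold change -0.06 with SE 0.05, adjusted p = 0.350 by limma), though it passed downward with TPM rescaling (adjusted p = 0.0398) and quantile normalization (0.0424). Eef1e1, a scaffold protein of the aminoacyl-tRNA synthetase complex, rose 1.20-fold from 39.0 ± 1.78 to 47.0 ± 1.29 RPKM. Eef1a2, the muscle and nerve form of eEF1A, had 0 reads in all 6 libraries, which allows at most 3 reads per library.

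Among the lysine methyltransferases of eEF1A, Eef1akmt2 fell and Eef1akmt4 rose, and both calls rested on few reads. Eef1akmt2 stood at 17.9, 19.2 and 16.2 RPKM in Vehicle and 15.5, 12 and 11.7 RPKM in OMP, with 47 to 87 reads per library (log2 fold change -0.44 with SE 0.12, adjusted p = 0.0156 by limma). The call was lost without Vehicle replicate 2, OMP replicate 2 or OMP replicate 3 (adjusted p = 0.0553, 0.0506 and 0.0543). Eef1akmt4 went from 8.51 ± 0.546 to 10.3 ± 0.499 RPKM (log2 fold change 0.26 with SE 0.08, adjusted p = 0.0360 by limma), a call lost without Vehicle replicate 2, Vehicle replicate 3, OMP replicate 2 or OMP replicate 3 (adjusted p = 0.108, 0.102, 0.101 and 0.0811), with the replicate number as a block (0.0741) and with voom on recovered reads (0.161). It was also lost with no filter and with TPM rescaling. Eef1akmt1 did not pass (log2 fold change 0.17 with SE 0.09, adjusted p = 0.144 by limma), but it did without OMP replicate 1 (adjusted p = 0.0240) and with median-of-ratios scaling (0.0394).

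**Figure D4:**
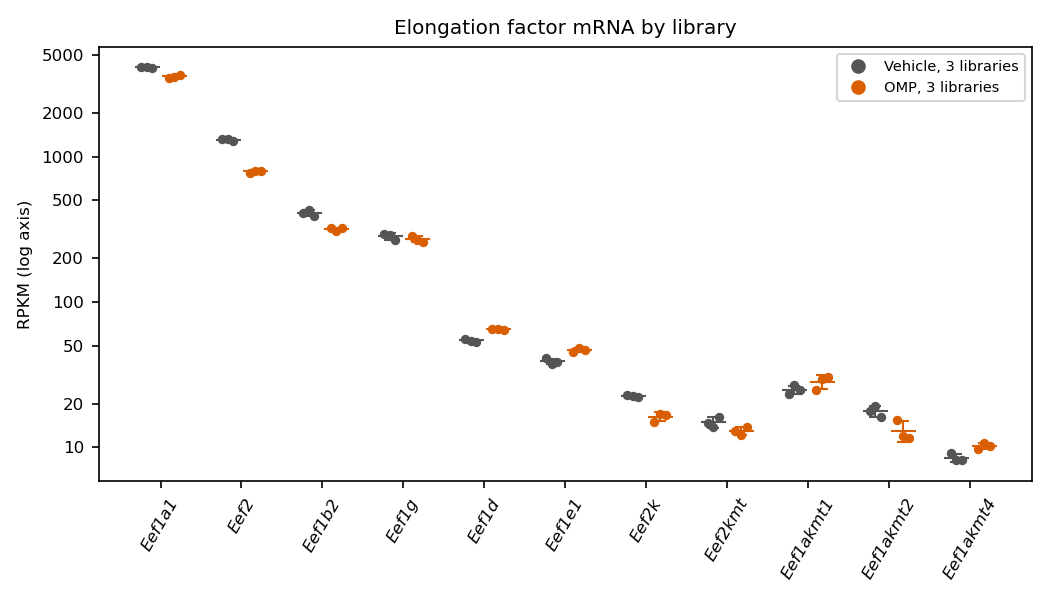
RPKM on a log axis of the 11 tested elongation factor genes, their kinase and methyltransferases in each Vehicle (grey) and OMP (orange) library, with mean and SD of 3 libraries as bars. Eef1a1, Eef2, Eef1b2, Eef2k and Eef1akmt2 are lower and Eef1d, Eef1e1 and Eef1akmt4 higher in every OMP library.

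A ratio of 2 genes within a library does not change with a factor that scales the whole library. These pairs were picked with their values known and are a description with no test. The ratio of Eef2 to Eef1a1 RPKM was 0.319, 0.320 and 0.313 in Vehicle and 0.222, 0.226 and 0.219 in OMP, and so lower in every OMP library. Eif4a1 over its cofactor Eif4b went from 2.39 ± 0.0935 to 4.63 ± 0.0567, and Eif4g1 over Eif4g2 from 0.559 ± 0.00956 to 0.917 ± 0.0399. Both ratios were higher in 3 of 3 OMP libraries, by more than the spread in either group.

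The ratios of 4E-BP mRNA to eIF4E mRNA were lower in every OMP library. Eif4ebp1 over Eif4e was 2.67, 2.40 and 2.65 in Vehicle and 1.97, 2.23 and 1.75 in OMP, the closest values being 2.40 in Vehicle replicate 2 and 2.23 in OMP replicate 2. Eif4ebp2 over Eif4e went from 1.79 ± 0.0455 to 1.33 ± 0.0737. Eif4g1 over Eif4e, the scaffold over the cap-binding protein, went the other way, from 3.96 ± 0.0239 to 5.66 ± 0.0790. Within eIF3, Eif3c over Eif3h was 0.896, 0.832 and 0.880 in Vehicle and 1.53, 1.49 and 1.59 in OMP, so Eif3h was the higher in Vehicle and Eif3c in OMP. The ratio of the paralogs Eif4a2 and Eif4a1 overlapped between groups (0.158 ± 0.0134 to 0.151 ± 0.00625).

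**Figure D5:**
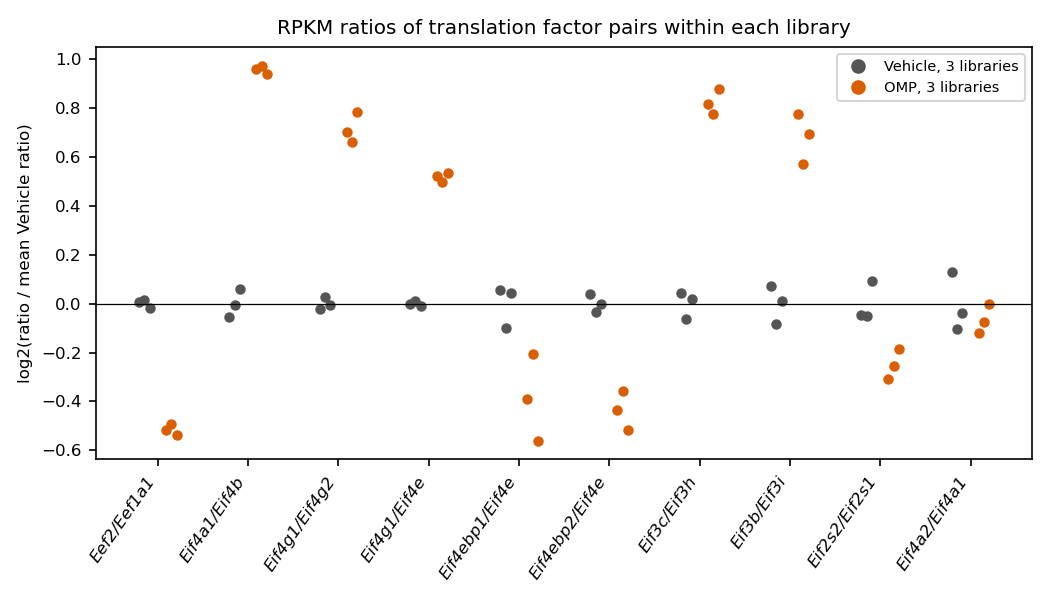
RPKM ratio of 10 pairs of genes in each library, as log2 of the ratio over its mean in Vehicle, for 3 Vehicle (grey) and 3 OMP (orange) libraries. The 3 OMP libraries lie apart from Vehicle for 9 pairs, furthest for Eif4a1 over Eif4b at 2.39 in Vehicle and 4.63 in OMP, and overlap for Eif4a2 over Eif4a1.

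Summed over the 69 members, the RPKM of translation factors made up 2.98% ± 0.022 of the RPKM sum in Vehicle and 2.59% ± 0.037 in OMP (SD, n = 3). Eef1a1 and Eef2 alone held 1.27% ± 0.011 in Vehicle and 0.959% ± 0.028 in OMP. The other 67 held 1.71% ± 0.012 in Vehicle and 1.63% ± 0.013 in OMP, lower in every OMP library, while their summed level was 7334 ± 55.7 RPKM in Vehicle and 7417 ± 36.1 RPKM in OMP, so the direction differed between these scales. The 14 eIF3 genes held 0.533% ± 0.0056 in Vehicle and 0.497% ± 0.011 in OMP, without overlap, and summed to 2283 ± 23.0 RPKM and 2259 ± 33.0 RPKM, with overlap. The RPKM sum over all rows, to which these shares refer, was itself higher in every OMP library.

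Genes that work with these factors gave a similar mixed picture, with 10 higher and 19 lower of 55 tested from 6 lists. That is 52.7% called, where 43.0% of all genes tested were called. The 52.5% of the fit limited to genes that reached RPKM 5 covers another set. These lists also hold genes under that level, down to a Vehicle mean of 1.21 RPKM. The balance of rises and falls changed with scaling here too, becoming 7 and 22 under TPM rescaling but 14 and 12 once the GC and length trend was removed. All 3 subunit genes of the phosphatases that reverse eIF2 alpha phosphorylation fell, also under each scaling alternative. Over all genes tested 27.5% were called lower. Ppp1r15a, the stress-induced subunit known as GADD34, was 1.5-fold lower at 32.0 ± 2.45 RPKM with Vehicle and 21.2 ± 1.6 RPKM with OMP (limma adjusted p = 5.58e-04). Ppp1ca, the catalytic subunit it shares with many other phosphatases, was 1.27-fold lower (333 ± 5.62 to 263 ± 13.5 RPKM), and Ppp1r15b, the constitutive partner, was 1.21-fold lower.

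Of 20 partners at the cap and the poly(A) tail 7 rose and 8 fell. These were 35.0% and 40.0% of the list, where 15.4% of all genes tested were called higher and 27.5% lower. Under the scaling alternatives 5 to 7 rose and 5 to 9 fell. Pdcd4, an inhibitor that keeps eIF4A from eIF4G, had the largest change, 2.11-fold lower from 54.6 ± 4.22 to 25.6 ± 1.78 RPKM (log2 fold change -1.08 with SE 0.07, adjusted p = 1.63e-05 by limma). Pabpc1, the main cytoplasmic poly(A)-binding protein, dropped 1.24-fold from 768 ± 7.13 to 621 ± 9.75 RPKM (log2 fold change -0.31 with SE 0.03, adjusted p = 8.06e-05 by limma). Neither call was lost in any of the 17 alternatives.

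Of 9 tested genes of mTORC1 and S6 kinase, Mtor rose (7.10 ± 0.301 to 9.06 ± 0.335 RPKM), 2 fell and 6 did not pass. That is 33.3% called, where 43.0% of all genes tested were called. Rheb, the GTPase that activates mTORC1, was 1.30-fold lower (log2 fold change -0.38 with SE 0.09, adjusted p = 0.00934 by limma), and Rps6kb1, an S6 kinase, was 1.24-fold lower, a call that was lost with quantile normalization and with the GC and length trend removed. Of 8 tested enzymes that modify eIF5A and eEF2 25.0% were called. Dph3 rose and Dph7 fell, both for diphthamide, the modified histidine of eEF2. Dph7, which acts late in that pathway, was 1.98-fold lower at 16.5 ± 0.704 RPKM with Vehicle and 8.09 ± 0.607 RPKM with OMP (log2 fold change -0.99 with SE 0.08, adjusted p = 4.16e-05 by limma), beside the fall of Eef2 itself, while Dph3, which acts in its first step, rose 1.34-fold from 13.4 ± 1.43 to 18.1 ± 1.68 RPKM.

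Termination genes moved by small amounts. Etf1, the release factor eRF1, was 1.14-fold lower and lost its call with the GC and length trend removed. Gspt1, its partner eRF3, rose 1.13-fold and lost its call with TPM rescaling. Among 5 tested genes of termination and recycling 40.0% were called, against 43.0% of all genes tested. Of 10 mitochondrial translation factors 0 rose and 4 fell, and under the scaling alternatives 0 rose and 2 to 6 fell. With RPKM as deposited that is 40.0% called, where 43.0% of all genes tested were called and 27.5% were called lower. Mtrf1, a mitochondrial release factor, was 1.95-fold lower at 13.7 ± 1.04 RPKM with Vehicle and 6.77 ± 0.750 RPKM with OMP, and Tsfm, the mitochondrial elongation factor Ts, dropped 1.40-fold from 30.6 ± 0.497 to 21.8 ± 0.755 RPKM. Neither lost its call in the 17 alternatives. The mitochondrial release and elongation genes Mtrf1l and Gfm1 did not pass (log2 fold changes -0.03 and -0.04).

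Medians of transcript make-up lay close together for members that rose and fell. The median GC content was 50.8% over the 16 that rose, 50.2% over the 22 that fell and 49.8% over the 23 others, with median transcript lengths of 2630.5, 2514.5 and 3186 bases. Members that fell had a higher median Vehicle level, 150.1 RPKM, than those that rose, 72.4 RPKM. The 8 members not tested were Eef1a2, Eif2s3y, Eif4e1b, Eif5a2 and Eif2c5, a row named after the argonaute family, all with 0 reads, and Eef1akmt3, Eif3j2 and Eif4ebp3, with at most 10 reads in any library. The rows left out as pseudogenes were low, the highest being Eif4a-ps4 with at most 54 reads.

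Exons of 26 tested members overlap those of another gene in the annotation, and no source used here gives the strand setting of the counting, so their reads cannot be separated further. The longest of these overlaps with a gene above the filter is that of Eif5b with Rev1 on the opposite strand, over 1643 bases. Rev1 was lower with OMP (39.8 to 33.1 RPKM) while Eif5b rose. Eif4a2 overlaps Rfc4 over 194 bases, and Rfc4 dropped from 53.7 to 24.8 RPKM while Eif4a2 rose. Eif1ad, which fell, overlaps Banf1 over 428 bases, and Banf1 rose from 258 to 304 RPKM. For Eif3j1 the partner Spg11 over 1107 bases did not pass (6.06 and 7.02 RPKM). Eif2ak1, which did not pass, overlaps Aimp2 over 487 bases, and Aimp2 rose from 14.4 to 29.1 RPKM (limma adjusted p = 1.23e-05). Snx17 over 204 bases rose with Eif2b4, and Alg3 over 143 bases with Eef1akmt4.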

How the data were processed

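RNA of 6 libraries, 3 per group, was sequenced after poly(A) selection and Illumina TruSeq preparation, per the labels' protocols. The authors deposited RPKM values, 1 column per library. The submitters' processing notes list featureCounts 1.6.3, STAR 2.5.3a, Trimmomatic 0.36, FastQC 0.11.5 and build mm10 (GRCm38). What annotation release and strand setting the counting used is not given in the sources used here.

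Whole reads came back from the RPKM steps for 100.0% of the 19970 genes above 0 (relative tolerance 1e-06). With limma 3.58.1 in R 4.3.3, log2(RPKM + 0.5) was fitted for genes that reached RPKM 1 in 3 or more of the 6 libraries, without covariates, with a trended prior, two-sided and Benjamini-Hochberg adjusted over all genes tested (threshold 0.05), and was tested on simulated data. Fold changes are on the log2(RPKM + 0.5) scale, errors are SD (n = 3) or SE, and intervals are 95%. Whether replicates were separate cultures is not stated, so a p-value reflects only how these libraries spread, which may be technical. The labels name no molecular identifiers, so the limit of 3 reads that a count of 0 allows covers counting error only.

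Members and gene lists were chosen with earlier results of these data known. Genes given by library were the 8 largest rises and 8 largest falls of members that passed, had a mean RPKM of 5 or more in either group and did not overlap, and a fixed set of key factors, 28 in all. Of each pathway list the 2 genes with the smallest p-value were named; others named were chosen after their values were seen. Alternatives were other pseudocounts (1 and 0.1), filters (none and an RPKM of 5), scalings, a robust prior, voom on recovered reads, the replicate number as a block, and leaving out each library; a fit without the trend over GC content and length was added after seeing the data. Positions and overlaps came from GENCODE release M21 (GRCm38), which may not be the release used for counting, and promoter windows from RefSeq on GRCm38.p6. Figures used matplotlib 3.10.9.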

Additional observations from a re-analysis of the deposited data

How the results depend on the processing

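Over all 17 alternatives 3968 (without Vehicle replicate 1) to 5336 (voom on recovered reads) genes were called, against 4735, and 35 to 47 members, against 38. Rises among members numbered 13 to 23 and falls 17 to 29 under the 16 alternatives planned, and 28 and 16 with the GC and length trend removed. The members' median log2 fold change minus that of all genes tested was 0.051 and became 0.015 with no filter, 0.035 with the filter at an RPKM of 5, 0.022 with the GC and length trend removed and, reversed, -0.013 with quantile normalization; leaving out each library gave 0.036 to 0.051. The cause of these shifts was not tested. No member called with RPKM as deposited changed sign while called, and Eif5, not called, passed upward (0.13, adjusted p = 0.0117) with the GC and length trend removed. For libraries with the same replicate number, deviations from the group means had correlations of -0.0024, 0.015 and 0.0069. Such values cannot show whether these libraries share more than the number. With the replicate block 4445 genes, 14 higher and 22 lower members, were called. Leaving out each library gave 14 to 16 higher and 21 to 22 lower members. Libraries of a group differed by more than sampling noise (chi-square per degree of freedom 1.19 to 1.61). Depth limits Eef1akmt2 and Eef1akmt4, with 47 to 87 and 49 to 56 reads per library.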
